A study of Mus musculus with 18 samples.

Results

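The SCL/LMO complex genes are 8 genes that encode a transcription factor complex of blood stem cells, red cell precursors and T-cell leukemia. They are Tal1 (whose product is called SCL or TAL1), Lyl1, Lmo1, Lmo2, Lmo4, Ldb1, Tcf3 and Tcf12. Every probe set whose annotated gene symbol was one of these was taken, which gave 12 of the 38089 probe sets with 1 symbol and all 8 genes among the 20672 genes measured. Tcf3 and Tcf12 had 3 probe sets each and the other 6 genes had 1 each. A gene was represented by the probe set with the highest mean signal over the 18 arrays, and the values are log2 signals on Affymetrix mouse expression arrays.

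By the labels, each array held RNA of 1 mouse. The wild-type group was normal thymus of 3 mice (623, 627 and 631). The Idh2R140Q/NHD13 group was leukemic spleen (T-cell acute lymphoblastic leukemia, T-ALL) from 9 mice that carry a mutant mitochondrial isocitrate dehydrogenase together with the NUP98-HOXD13 fusion, and its leukemia is labelled DN1/DN2, the earliest thymocyte stages. The SCL/LMO1 group was thymus with cortical T-ALL, labelled not DN1/DN2, of 6 mice with SCL and LMO1 transgenes, so that this genotype adds extra copies of members of the complex itself. The sources used here do not give the promoter or species of the transgenes, the strain or the age. Spleen stands for Idh2R140Q/NHD13 only and thymus for the other groups, so that organ and genotype cannot be told apart in either comparison with the spleens. In bulk RNA, fewer cells of a type and less RNA per cell cannot be told apart either.

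Spleen arrays 546 and 550 were closer to each other than any other 2 arrays (a root mean square difference of 0.21 log2 units against 0.445 or more) and were counted as 1 sample. This left 17 samples, 8 of them from Idh2R140Q/NHD13 mice. Whether arrays 546 and 550 read the same sample could not be settled. Array medians were 5.89 to 6.01. The T-lineage markers, such as Cd3e, Lck and Rag1, had a mean of 12.02 ± 0.38 (SD, n = 3) in wild-type thymus, 11.96 ± 0.25 (n = 6) in SCL/LMO1 T-ALL and 7.69 ± 0.95 (n = 8) in the spleens. In the spleens 11 of 11 were called lower than in SCL/LMO1 T-ALL, where 12.0% of all genes were. Against wild type 7 of 11 were called lower, where 8.31% of all genes were. Spleens 525, 531 and 570 had the lowest T-lineage means, 6.65, 6.56 and 6.50, and the other 5 samples had 8.15 to 8.75. Every spleen thus had a lower T-lineage mean than any thymus, but single markers differed. Lck read up to 13.15 in the spleens against 12.86 to 13.61 in wild type, and Rag1 up to 9.20 against 13.68 to 14.12. The 5 early progenitor markers were Kit, Cd34, Flt3, Meis1 and Il2ra. Their means were 7.67 ± 0.10, 7.67 ± 0.54 and 7.18 ± 0.61 in wild type, spleens and SCL/LMO1 T-ALL. The equal means of wild type and spleens held opposite changes, with 1 marker called higher in the spleens and 2 lower. Over all genes 9.08% were called higher and 8.31% lower in that comparison. Kit had means of 10.01 in the spleens and 7.11 in wild type, and Meis1 5.62 and 7.64.

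As background, Tal1 and Lyl1 encode related basic helix-loop-helix proteins that bind DNA only as heterodimers with an E protein, such as the products of Tcf3 (E2A) and Tcf12 (HEB). The LMO proteins do not bind DNA themselves. They bridge the helix-loop-helix pair to LDB1, which dimerizes and joins the complex to GATA factors. In red cell precursors the complex activates erythroid genes, and in human and mouse T-ALL the forced expression of SCL, LYL1, LMO1 or LMO2 in thymocytes is oncogenic and lowers the activity of E proteins, which drive normal thymocyte maturation.

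The stretches just upstream of the start sites of Tal1, Lyl1 and Lmo1 are shown because these genes encode the DNA-binding oncoproteins and the transgenic LMO protein. The sequences are from RefSeq on GRCm38.p6, cover the 250 bases before the most upstream listed start, and run in the direction of the gene. Capitals mark matches on either strand to the E-box letters CANNTG, which helix-loop-helix dimers bind, the GATA letters AGATAA or the ETS letters AGGAAG. The Tal1 stretch lay at chr4:115056176-115056425 on the plus strand, the Lyl1 stretch at chr8:84701207-84701456 on the plus strand and the Lmo1 stretch at chr7:109175208-109175457 on the minus strand.
Tal1: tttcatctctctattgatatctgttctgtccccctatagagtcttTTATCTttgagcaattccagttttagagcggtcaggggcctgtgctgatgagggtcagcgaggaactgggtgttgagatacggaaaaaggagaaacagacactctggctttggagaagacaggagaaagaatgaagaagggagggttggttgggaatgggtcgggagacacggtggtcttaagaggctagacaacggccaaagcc
Lyl1: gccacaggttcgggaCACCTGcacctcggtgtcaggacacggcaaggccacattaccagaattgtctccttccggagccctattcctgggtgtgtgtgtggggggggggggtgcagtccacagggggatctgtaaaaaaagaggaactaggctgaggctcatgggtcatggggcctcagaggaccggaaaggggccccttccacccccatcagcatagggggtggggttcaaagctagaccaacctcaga
Lmo1: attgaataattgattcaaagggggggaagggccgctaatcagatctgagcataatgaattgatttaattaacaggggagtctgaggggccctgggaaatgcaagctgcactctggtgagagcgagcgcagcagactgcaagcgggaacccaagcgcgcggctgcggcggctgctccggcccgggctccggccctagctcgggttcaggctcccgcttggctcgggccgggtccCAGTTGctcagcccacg

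The Tal1 stretch held a GATA match (TTATCT on the strand shown, -205 to -200 from the start) and neither of the other motifs. The Lyl1 stretch held an E-box (CACCTG, -235 to -230), and the Lmo1 stretch an E-box close to its start (CAGTTG, -17 to -12). Over all 32851 promoters of the table, 66.2% held an E-box, 9.99% a GATA match and 29.5% an ETS match in the same window. In all, 15 promoters were listed for 7 of the 8 genes (not Lmo2), and 9 held an E-box, 2 a GATA match and 3 an ETS match. No match in these stretches overlapped another, and a match is a run of letters, not a measured binding site.

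The genes of the complex split into opposite directions between both leukemias. Tal1, Lyl1 and Lmo2 were higher in Idh2R140Q/NHD13 spleens than in SCL/LMO1 thymi, by 41.3-fold, 11-fold and 13.2-fold, while Lmo1, Ldb1 and Tcf12 were lower, by 12.2-fold, 1.61-fold and 2.16-fold. Thus 6 of 8 members were called by limma (adjusted p under 0.05 over all genes), where 23.7% of all genes were called (11.7% higher and 12.0% lower). Lmo4 and Tcf3 were not called. Against wild-type thymus, the spleens had 3 of 8 members called, Tal1, Lyl1 and Lmo2, all higher, where 17.4% of all genes were called, 9.08% higher and 8.31% lower (3596 genes, but 1382 without wild-type mouse 623 and 1979 without mouse 627). SCL/LMO1 T-ALL had 1 of 8 called against wild-type thymus, Lmo1, which was higher, where 11.6% were called, 5.04% higher and 6.52% lower (2390 genes, but 1200 without mouse 623 and 765 without mouse 627). The median difference over all genes was 0.03, 0.10 and 0.08 log2 units in these comparisons. Each pair of comparisons shares a group, so they are not independent of each other.

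**Figure D1:**
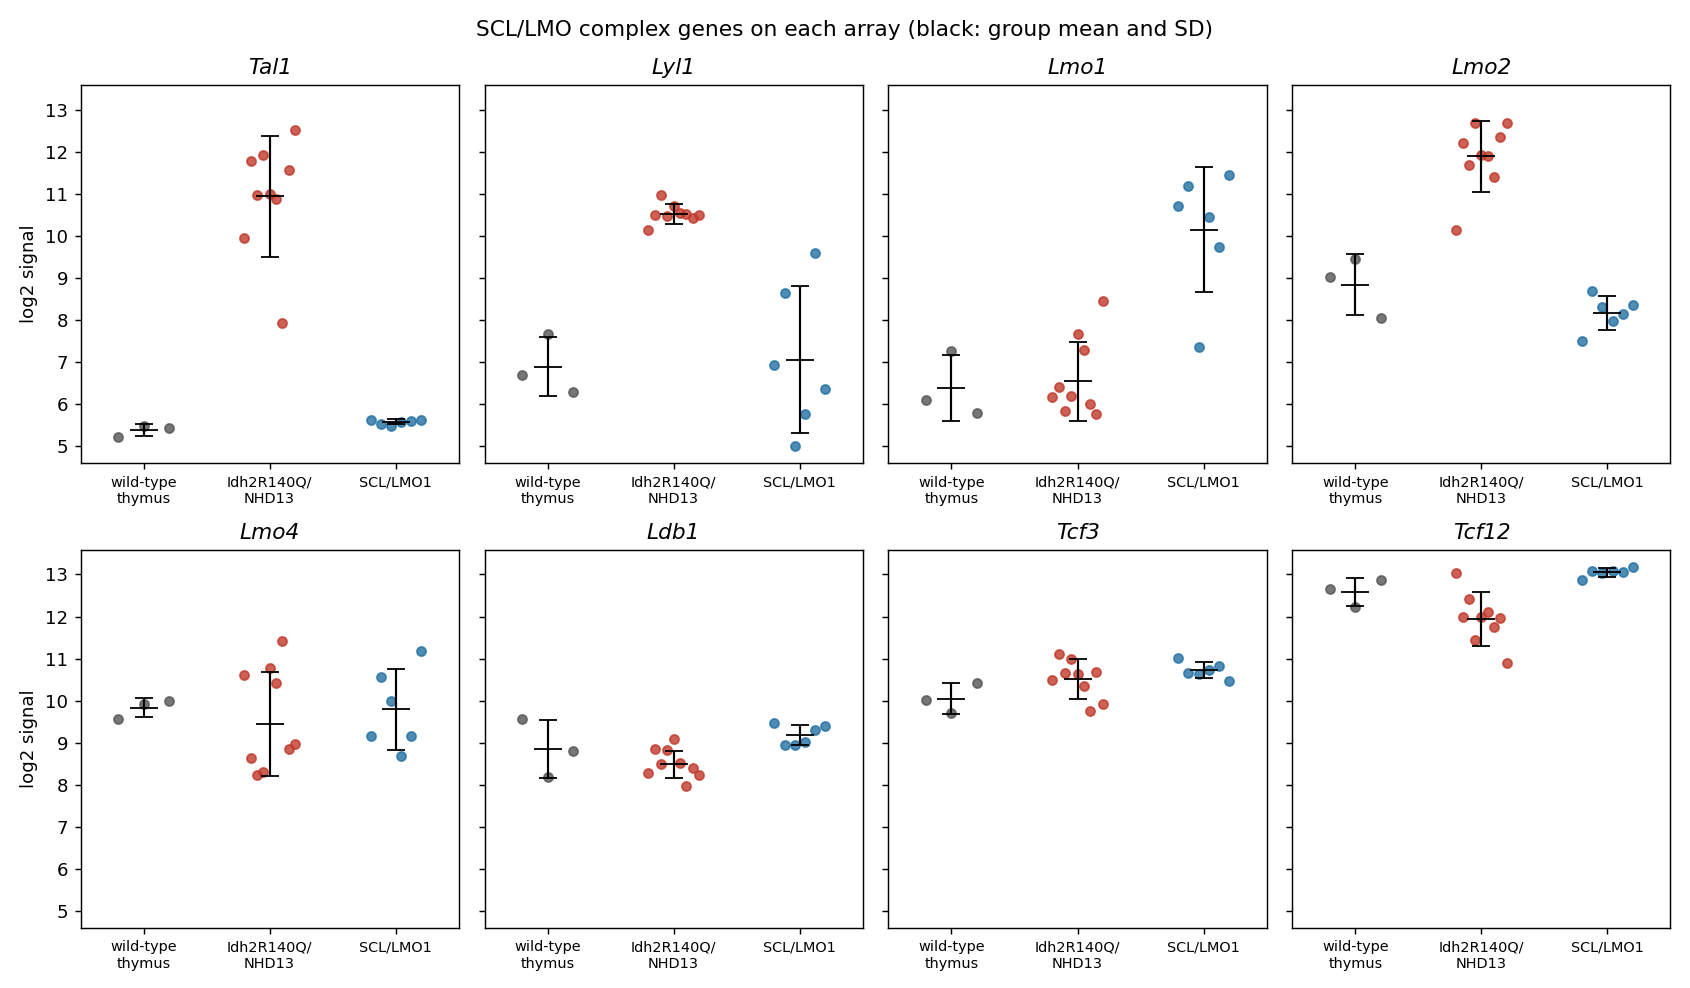
Log2 signal of the brightest probe set of each of the 8 genes (vertical axis) on all 18 arrays, by group, with a black group mean and SD taken over 3, 8 and 6 samples (mice 546 and 550 as 1). Tal1, Lyl1 and Lmo2 are high in the Idh2R140Q/NHD13 spleens, Lmo1 is high in SCL/LMO1 thymi, and Lmo4 spreads widely in both leukemias.

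Tal1, the helix-loop-helix gene after which the SCL/LMO1 mice are named, showed the largest difference of the 8 genes in both comparisons with the spleens. Its probe set (1449389_at, chromosome 4) read 5.22, 5.48 and 5.43 in the wild-type thymi. In SCL/LMO1 T-ALL it read 5.48 at the lowest, 5.59 at the median and 5.63 at the highest, a range of 0.15. In the spleens it read 7.93 at the lowest (mouse 555), 11.26 at the median and 12.51 at the highest (mouse 570). The spleens lay wholly above both other groups. Both thymus groups read low, between 5.22 and 5.63, below the median level of all genes (6.71). Of all genes, 8.69% had no overlap between spleens and SCL/LMO1 T-ALL and 12.1% between spleens and wild type, in either direction.

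The mean Tal1 signal was 10.94 ± 1.44 (SD, n = 8) in the spleens and 5.58 ± 0.06 (n = 6) in SCL/LMO1 T-ALL, a difference of 5.37 log2 units (SE 0.52, limma adjusted p = 3.17e-06). Against wild-type thymus (5.38 ± 0.14, n = 3) the spleens were higher by 5.57 (SE 0.65, limma adjusted p = 4.98e-05). SCL/LMO1 T-ALL differed from wild type by 0.20 (SE 0.68, limma adjusted p = 0.887). This probe set thus showed no added signal in the SCL transgenic thymi. The sources used here do not say whether its probes lie in the transgene's RNA or match its species, so this reading checks nothing about the genotype. No detection calls were used, and a fold against a group near background is a low estimate.

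Lyl1, the closest relative of Tal1 among the 8 genes, was high in every spleen and uneven in SCL/LMO1 T-ALL. The probe set (1419120_at, chromosome 8) read 10.13 (mouse 524), 10.50 and 10.98 (mouse 526) at the lowest, median and highest spleen, a narrow range of 0.84. The SCL/LMO1 values were 5.01 (mouse 6889/1) at the lowest, 6.65 at the median and 9.59 (mouse 6883/2) at the highest. Mouse 7114/3 had 8.65, and mouse 7114/1, whose label shares its opening part, had 6.37. The wild-type thymi read 6.70, 7.66 and 6.29. Of the SCL/LMO1 thymi, 2 thus read above every wild-type thymus and 2 below all of them, and none reached the spleens.

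The mean Lyl1 signal was 10.52 ± 0.23 (SD, n = 8) in the spleens, higher by 3.46 (SE 0.56, limma adjusted p = 0.000325) than in SCL/LMO1 T-ALL (7.06 ± 1.75, n = 6) and by 3.63 (SE 0.70, limma adjusted p = 0.00258) than in wild type (6.89 ± 0.70, n = 3). The groups did not overlap in either comparison, which 8.69% and 12.1% of all genes also showed. Between SCL/LMO1 T-ALL and wild type the difference was 0.17 (SE 0.73, limma adjusted p = 0.913), and its sign turned without mouse 6883/2 (-0.34), without 7114/3 (-0.15) or without wild-type mouse 631 (-0.13).

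Lmo1, the LIM-only gene of the transgene, was the only member called higher in SCL/LMO1 T-ALL than in wild-type thymus. Its probe set (1418478_at, chromosome 7) read 6.09, 7.27 and 5.79 in the wild-type thymi. The SCL/LMO1 thymi read 7.37 (mouse 6889/1) at the lowest, 10.58 at the median and 11.45 (mouse 7114/1) at the highest, and the other 5 mice lay between 9.73 and 11.45. Mouse 6889/1 stood apart, close to the highest wild-type thymus, and it also had the lowest Lyl1. In the spleens Lmo1 read 5.77 (mouse 559) at the lowest, 6.19 at the median and 8.46 (mouse 570) at the highest, and mice 546 and 550 read 7.68 and 7.28 (mean 7.48). Mouse 546, that mean and spleen 570 thus lay above the lowest SCL/LMO1 thymus.

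The mean Lmo1 signal in SCL/LMO1 T-ALL was 10.15 ± 1.49 (SD, n = 6), 13.6-fold above wild type (6.38 ± 0.78, n = 3), a difference of 3.77 (SE 0.77, limma adjusted p = 0.00551). Without mouse 6889/1 the difference was 4.32. As with Tal1, the sources used here do not say whether the probes of this set read RNA of the transgene. Signal of the transgene and of the mouse's own gene could thus not be told apart. The spleens (6.54 ± 0.94, n = 8) were lower, and the difference from SCL/LMO1 T-ALL was -3.61 (SE 0.59, limma adjusted p = 0.000358), or -4.16 without mouse 6889/1. Against wild type the spleens differed by 0.16 (SE 0.73, limma adjusted p = 0.89), and this sign turned without spleen 570 (-0.11) or wild-type mouse 631 (-0.14).

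Lmo2, the LIM-only gene that normal blood stem cells and red cell precursors use, followed Tal1 in its direction. Its probe set (1454086_a_at, chromosome 2) read 10.13 (mouse 524) at the lowest, 12.06 at the median and 12.69 (mouse 531) at the highest spleen. It read 9.02, 9.45 and 8.05 in the wild-type thymi. The SCL/LMO1 thymi read 7.51 (mouse 3767), 8.23 and 8.69 (mouse 7114/3) at the lowest, median and highest. All spleens exceeded all thymi, and mouse 524 stood closest to them. Of all genes, 8.69% had no overlap between spleens and SCL/LMO1 T-ALL and 12.1% between spleens and wild type.

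The spleens (11.89 ± 0.84, SD, n = 8) were higher in Lmo2 by 3.72 (SE 0.36, limma adjusted p = 2.82e-06) than SCL/LMO1 T-ALL (8.16 ± 0.40, n = 6) and by 3.04 (SE 0.45, limma adjusted p = 0.000326) than wild type (8.84 ± 0.72, n = 3). SCL/LMO1 T-ALL was -0.68 from wild type (SE 0.47, limma adjusted p = 0.373). The LIM-only gene called higher than in wild type was thus Lmo1 in SCL/LMO1 T-ALL and Lmo2 in the spleens. The Lmo1 signal may include that of the transgene, as given above.

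Lmo4, a LIM-only gene with wide expression that competes for LDB1, differed more among mice of a leukemia group than between groups. The wild-type thymi read 9.56, 9.93 and 9.99 (1420981_a_at, chromosome 3). The spleens ran from 8.23 (mouse 526) over a median of 8.91 to 11.41 (mouse 555), and SCL/LMO1 T-ALL from 8.68 (mouse 6466/4) over 9.58 to 11.18 (mouse 7114/1). Spleens 524, 546, 550 and 555 read 10.60, 10.78, 10.43 and 11.41, and the other 5 read between 8.23 and 8.98, with none in between. The 3 differences were -0.34 between the leukemias (SE 0.53, limma adjusted p = 0.694), -0.37 from wild type for the spleens (SE 0.67, limma adjusted p = 0.708) and -0.04 for SCL/LMO1 T-ALL (SE 0.70, limma adjusted p = 0.982), the last of which changed sign without any of 5 single mice (up to 0.19, without 6466/4).

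Ldb1, the gene for the adaptor that holds the complex together, differed little in size but without overlap between the leukemias. It read 9.57, 8.19 and 8.80 in wild type (1452024_a_at, chromosome 19), a span of 1.38 that exceeded those within the spleens (0.88) and SCL/LMO1 T-ALL (0.52). The spleens read 7.98 (mouse 555) to 8.86 (mouse 525), with a median of 8.45, where mice 546 and 550 enter by their mean of 8.81. SCL/LMO1 T-ALL read 8.95 to 9.47 with a median of 9.16. Taken array by array, mouse 546 alone (9.09) reached the SCL/LMO1 range. Of all genes, 8.69% had no overlap between the leukemias with mice 546 and 550 as 1 sample.

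The spleens (8.49 ± 0.32, SD, n = 8) were lower in Ldb1 than SCL/LMO1 T-ALL (9.18 ± 0.24, n = 6), with a difference of -0.69 (SE 0.19, limma adjusted p = 0.0168). This was the weakest of the 6 calls and was not held at an adjusted p under 0.01. Against wild type (8.85 ± 0.69, n = 3) the spleens differed by -0.36 (SE 0.24, limma adjusted p = 0.303) and the SCL/LMO1 thymi by 0.33 (SE 0.25, limma adjusted p = 0.437), the latter -0.003 without wild-type mouse 627.

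**Figure D2:**
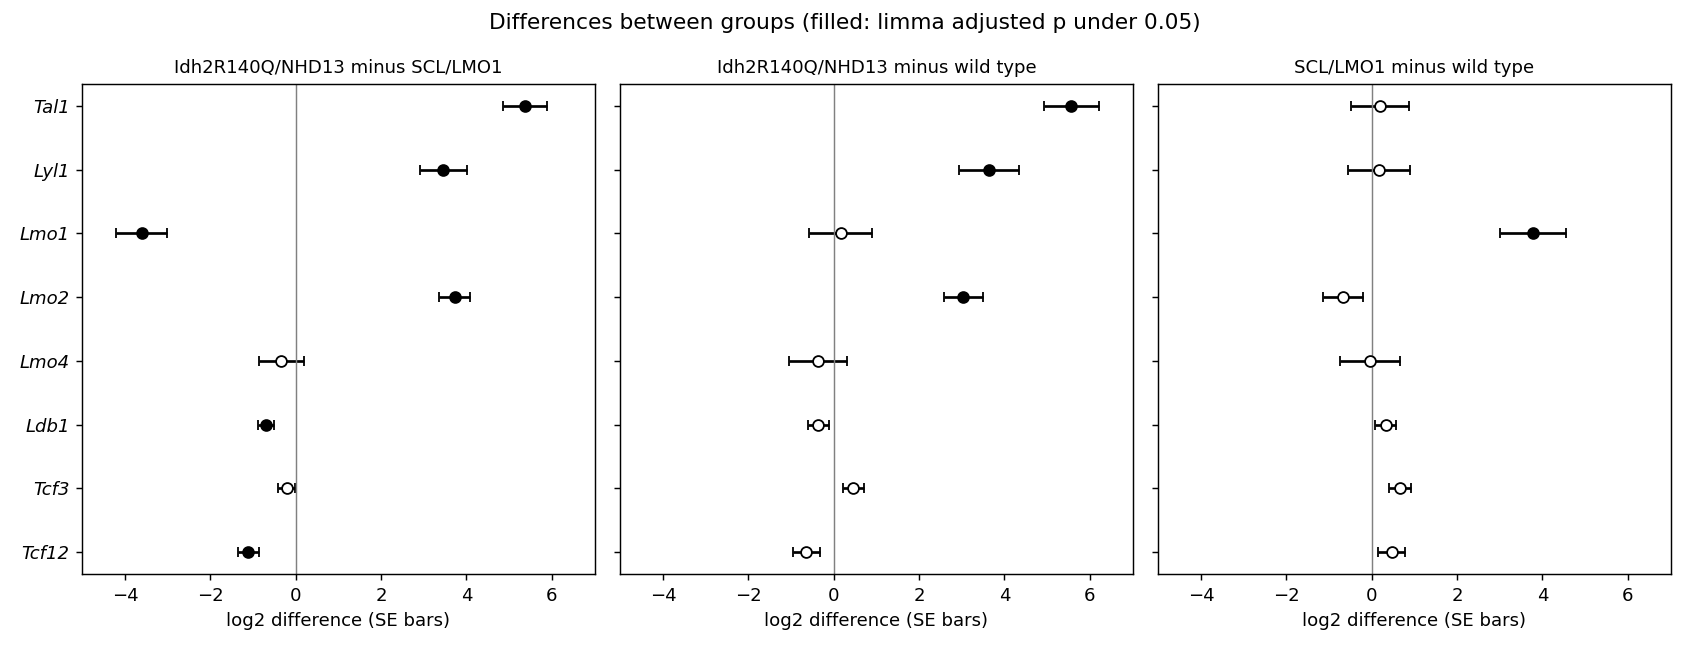
Difference in mean log2 signal (horizontal axis) with its SE for the 8 genes in the 3 comparisons, filled where limma called it at an adjusted p under 0.05. The leukemias differ in both directions, from 5.37 for Tal1 to -3.61 for Lmo1, and Lmo1 alone is filled between SCL/LMO1 T-ALL and wild type.

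The E protein genes, whose products pair with SCL and LYL1, differed less between the leukemias than Tal1, Lyl1, Lmo1 and Lmo2. Of them, Tcf12 was called between the leukemias and Tcf3 was not. Tcf12 encodes HEB, the E protein that is prominent in thymocytes. Its brightest probe set (1427670_a_at, chromosome 9) read 12.66, 12.22 and 12.87 in wild type. SCL/LMO1 T-ALL was tight at 12.87 to 13.18 with a median of 13.06. The spleens read 10.89 (mouse 570) to 13.04 (mouse 524) with a median of 11.98, and only mouse 524 reached the SCL/LMO1 range.

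The spleens (11.94 ± 0.64, SD, n = 8) were lower in Tcf12 than SCL/LMO1 T-ALL (13.05 ± 0.10, n = 6), with a difference of -1.11 (SE 0.24, limma adjusted p = 0.0035). The other probe sets of Tcf12 were lower too, by -1.43 and -1.86 (limma adjusted p = 0.00156 and 0.000101 over all probe sets, of which 24.1% were called), and the groups did not overlap for the last of them. Against wild type the spleens were at -0.64 (SE 0.31, limma adjusted p = 0.15), which became -0.80 (limma adjusted p = 0.0301) without mouse 524. The dimmest of its probe sets was called there, at -0.99 (limma adjusted p = 0.0483). By the brightest probe set, SCL/LMO1 T-ALL was 0.47 above wild type (SE 0.32, limma adjusted p = 0.365). Its groups met there at 12.87 (SCL/LMO1 mouse 3767 and wild-type mouse 631) and were apart only beyond the second decimal. Of all genes, 20.9% had no overlap there, and the groups of the other probe sets of Tcf12 overlapped.

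Tcf3, which encodes the E2A proteins E12 and E47, was not called by its brightest probe set (1426297_at, chromosome 10) in any comparison. It read 10.01, 9.71 and 10.43 in wild type, 9.76 (mouse 555) to 11.10 (mouse 525) in the spleens with a median of 10.58, and 10.46 to 11.02 in SCL/LMO1 T-ALL with a median of 10.69. The differences were -0.21 between the leukemias (SE 0.20, limma adjusted p = 0.481), 0.46 from wild type for the spleens (SE 0.25, limma adjusted p = 0.204) and 0.67 for SCL/LMO1 T-ALL (SE 0.26, limma adjusted p = 0.107). In the last comparison all SCL/LMO1 thymi read above all wild-type thymi by each of the 3 probe sets, which gave 0.67 to 0.89 and were not called. Of all genes 20.9% also had no overlap there, and the 3 probe sets were read on the same arrays. Probe set 1452542_x_at was called between spleens and wild type, at 0.85 (limma adjusted p = 0.0442), where 16.6% of probe sets were called.

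The complex acts in red cell precursors, and spleen holds such cells, so erythroid markers were read beside these genes. The mean of 12 erythroid markers, such as Slc4a1 and Klf1, was 5.98 ± 0.20 (SD, n = 3) in wild type, 5.82 ± 0.18 (n = 6) in SCL/LMO1 T-ALL and 11.62 ± 1.16 (n = 8) in the spleens. Of the markers 11 of 12 were higher in the spleens than in SCL/LMO1 T-ALL (11.7% of all genes were). Against wild type 12 of 12 were higher (9.08% of all genes). In wild type 9 of 12 and in SCL/LMO1 T-ALL 10 of 12 lay below the median level of all genes, against 0 of 12 in the spleens. The spleen means were 9.42 (mouse 555), 10.43 (524), 11.48 (526), 11.75 (546 and 550), 12.18 (559), 12.28 (525), 12.71 (531) and 12.74 (570).

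Among the spleens, Tal1 followed that mean. Mouse 555 was lowest in both and mouse 570 highest in both, with Pearson r = 0.981 over 8 samples (two-sided exact permutation p = 4.96e-05, adjusted p = 0.000794) and Spearman rho = 0.976 (exact permutation p = 0.000397, adjusted p = 0.00635). Without the 2 samples farthest from the median, r was 0.938. Lmo2 had rho = 0.929 (exact permutation p = 0.00223, adjusted p = 0.0179) and r = 0.788 (exact permutation p = 0.0236, adjusted p = 0.126), and r = 0.982 without the 2 farthest samples. The adjustment covered 16 relations, 8 genes in each of 2 leukemia groups, and members were measured on the same arrays as the markers.

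Lyl1, in contrast to its place beside Tal1 in the group comparisons, had r = 0.15 with the erythroid mean among the spleens (exact permutation p = 0.7, adjusted p = 0.782), and its sign turned to -0.792 without the 2 farthest samples. Spleen 555, with the lowest erythroid mean and a Tal1 of 7.93, had a Lyl1 of 10.51 and an Lmo2 of 11.41. Lmo4 had r = -0.801 (exact permutation p = 0.0149, adjusted p = 0.119), and -0.258 without the 2 farthest samples, so that relation rested on them. Lmo1, Ldb1, Tcf3 and Tcf12 had r of 0.399, 0.648, 0.523 and -0.504, with adjusted p of 0.34 to 0.524 by exact permutation. Without the 2 farthest samples their r was 0.354, -0.105, -0.122 and -0.893, which was not tested. In SCL/LMO1 T-ALL, where the erythroid mean ran only from 5.64 to 6.15, no relation passed (adjusted p of 0.524 or more for r and 0.46 or more for rho by exact permutation, n = 6), and the difference between the relations of Tal1 and Lyl1 was not tested.

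**Figure D3:**
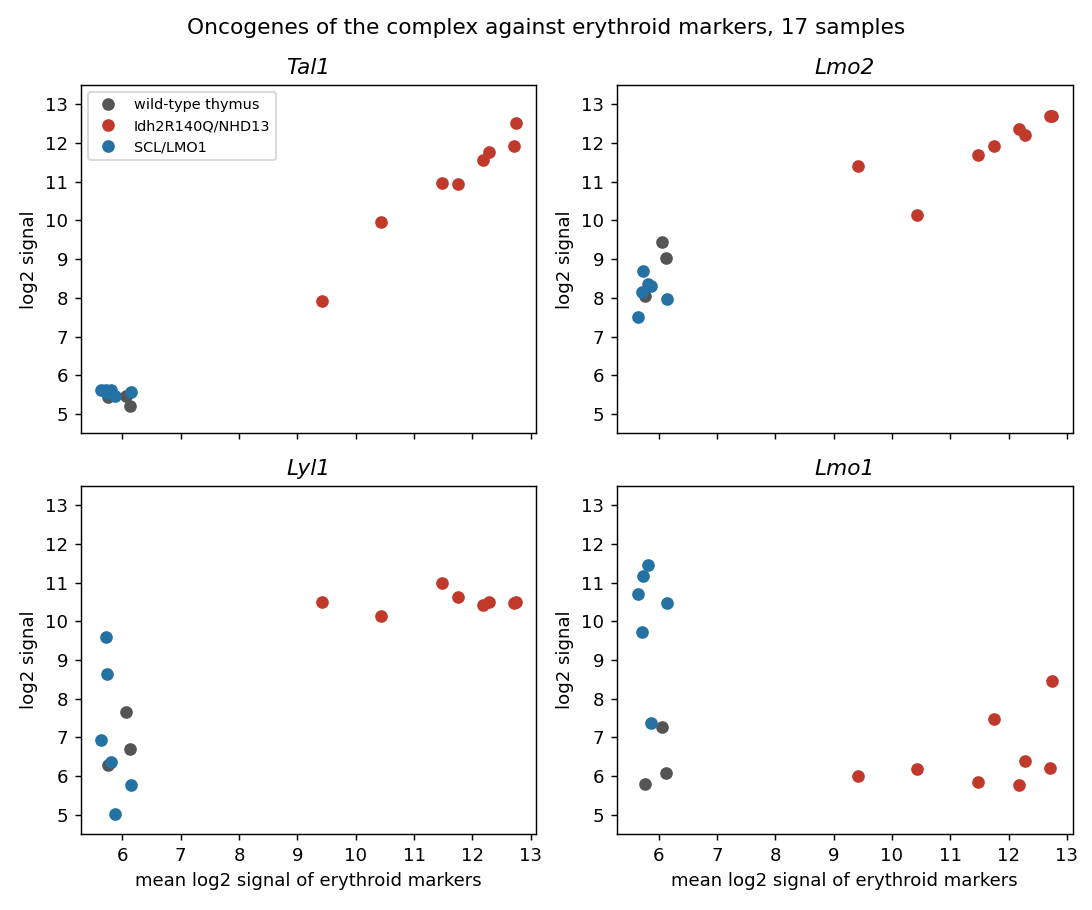
Log2 signal of Tal1, Lmo2, Lyl1 and Lmo1 (vertical axes) against the mean log2 signal of 12 erythroid markers (horizontal axes) in 17 samples, coloured by group. Among the spleens Tal1 climbs from 7.93 to 12.51 with the marker mean, while Lyl1 stays between 10.13 and 10.98.

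Markers of other cell types were read too. Between the leukemias 23.7% of all genes were called, 11.7% higher and 12.0% lower in the spleens. Of 6 megakaryocyte markers 4 were higher in the spleens than in SCL/LMO1 T-ALL (means of 8.70 ± 0.41 and 6.39 ± 0.07, and 6.80 ± 0.58 in wild type), of 6 endothelial markers 4 (7.39 ± 0.44, 6.41 ± 0.26 and 6.56 ± 0.60), of 6 neutrophil markers 4 (10.08 ± 1.80, 7.49 ± 1.5 and 6.06 ± 0.55) and of 5 mast cell and basophil markers 1 (7.56 ± 1.02, 5.97 ± 0.47 and 6.52 ± 0.24). Of 6 B-lineage markers 1 was lower (5.53 ± 0.23, 6.07 ± 0.74 and 7.48 ± 0.74), and of 5 thymic epithelium markers 0 were called by limma, or reached an unadjusted p under 0.05 (5.38 ± 0.61, 6.04 ± 1.28 and 8.86 ± 0.53). Early progenitor markers had 1 of 5 higher and 1 lower. Against wild type, where 9.08% of all genes were called higher and 8.31% lower, the spleens had 5 B-lineage and 3 thymic epithelium markers lower. They had 3 megakaryocyte, 2 endothelial and 5 neutrophil markers higher, and 1 mast cell and basophil marker higher and 1 lower. SCL/LMO1 T-ALL also had 3 thymic epithelium markers lower than wild type, and 2 B-lineage markers, where 6.52% of all genes were called lower. Tal1, Lyl1 and Lmo2 are also expressed in megakaryocytes and endothelium, and the part of any of these cells in the members' differences was not tested.

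The relation to the T-lineage mean was computed in SCL/LMO1 T-ALL alone, because the spleens fell into separate clusters on it. The largest was that of Lmo1, at r = 0.741 (exact permutation p = 0.126, adjusted p = 0.483 over 8 relations, n = 6), and mouse 6889/1 was lowest in both. Among the spleens of the low cluster, 525, 531 and 570, Tal1 read 11.77, 11.92 and 12.51, Lmo2 read 12.20, 12.69 and 12.69, and Tcf12 read 11.98, 11.43 and 10.89. In the other spleens Tal1 ran from 7.93 (mouse 555) to 11.56 (mouse 559) and Lmo2 from 10.13 (mouse 524) to 12.36 (mouse 559). Their Tcf12 ran from 11.75 (mouse 555) to 13.04 (mouse 524). Spleens 525, 531 and 570 also had the highest erythroid means (12.28, 12.71 and 12.74), so T-lineage and erythroid order cannot be told apart here. The difference between the clusters was not tested. Spleen 524, with the highest T-lineage mean (8.75), had the lowest Lmo2 and Lyl1 and the highest Tcf12 of the group.

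The genes whose profile over the 17 samples was most like that of each variable member were found by the root mean square difference of mean-centred log2 signals. The profiles hold the differences between groups, so a gene with the same group pattern as a member is near it by the way it was chosen. For Tal1, whose SD over the samples was 2.96, these were Rhd (0.34), Epb42 (0.41), Tmcc2 (0.44), Trim10 (0.46) and Apol8 (0.48). Rhd encodes a red cell blood group protein and Epb42, also 1 of the 12 erythroid markers, a protein of the red cell membrane skeleton. For Lmo2 (SD 1.93) they were Pck2 (0.41), Fech (0.45), Dmtn (0.50), Fnip2 (0.51) and Fhdc1 (0.52), of which Fech encodes the last enzyme of heme synthesis and Dmtn a red cell membrane skeleton protein.

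For Lyl1 (SD 2.08) the likeness was looser, and the nearest genes were Kit (0.78), Hs6st2 (0.97), Hhex (0.99), Fhdc1 (1.02) and Sorbs2 (1.03). Kit encodes the stem cell factor receptor and Hhex a homeobox protein of early progenitors. For Lmo1 (SD 2.10) they were Cpsf4l (0.93), Elavl4 (0.95), Myrfl (1.03), Cdk5rap2 (1.03) and Cyp39a1 (1.09). Their highest mean was in SCL/LMO1 T-ALL, which a choice by likeness to Lmo1 favours. Elavl4 encodes a neuronal RNA-binding protein and read 9.37 in SCL/LMO1 T-ALL against 6.16 in the spleens and 5.15 in wild type.

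Among 15 partners of the complex, 3 were higher and 5 lower in the spleens than in SCL/LMO1 T-ALL, with a median of -0.34. Over all genes 11.7% were called higher and 12.0% lower in this comparison. Gata1, the GATA factor of red cell precursors, was higher by 4.14 (SE 0.56, limma adjusted p = 7.31e-05) and Gata2, that of stem cells and mast cells, by 2.82 (SE 0.34, limma adjusted p = 2.68e-05). Rcor1, which encodes the corepressor CoREST, was higher by 0.59 (limma adjusted p = 0.0371). Runx1, which often binds beside the complex, was lower by -1.84 (SE 0.32, limma adjusted p = 0.000616) and the corepressor gene Sin3a by -0.53 (limma adjusted p = 0.0012). The T-cell GATA factor Gata3 was not called (-2.01, SE 0.91, limma adjusted p = 0.123). The call of Rcor1 was lost under 14 of 28 other settings, and that of Rlim (-0.34, limma adjusted p = 0.0434) under 15.

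Against wild type, 5 of the 15 partners were higher and 1 lower in the spleens (median 0.03), and 2 were higher in SCL/LMO1 T-ALL (median 0.36). Over all genes 9.08% were called higher and 8.31% lower in the spleens, and 5.04% and 6.52% in SCL/LMO1 T-ALL. With a wild-type mouse (623 or 627) left out, the count higher in the spleens was 2. The partners higher in SCL/LMO1 T-ALL were Ssbp3, whose product stabilizes LDB1, at 1.11, and Rlim, whose product is a ubiquitin ligase for LDB1 and LMO proteins, at 0.61. They were named after their values were seen, and 1 remained called without mouse 623 or 627.

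Of 6 paralogs of members, Ldb2 and the E protein gene Tcf4 were higher in the spleens than in the SCL/LMO1 thymi by 0.72 (limma adjusted p = 0.00365) and 1.30 (limma adjusted p = 0.00486), and the median was 0.11. Tal2, Lmo3, Nhlh1 and Nhlh2 were not called and had means of 3.60 to 4.52 in every group. Ldb2 was higher in the spleens than in wild type too (0.68, limma adjusted p = 0.0284, not called without wild-type mouse 623 or 631), and 0 paralogs were called by limma in SCL/LMO1 T-ALL against wild type (1 at an unadjusted p under 0.05). Of the 4 Id genes, whose products bind E proteins and keep them off DNA, Id4 was higher in the spleens than in the SCL/LMO1 thymi by 3.33 (limma adjusted p = 5.29e-05) and Id3 lower by -1.55 (limma adjusted p = 0.0145), with a median of 0.29. Id3 was lower in the spleens than in wild type (-2.59, limma adjusted p = 0.00429), and Id4 was lower in SCL/LMO1 T-ALL than in wild type (-2.88). Beside these counts of paralogs and Id genes, 23.7% of all genes were called between the leukemias. The share was 17.4% between spleens and wild type and 11.6% between SCL/LMO1 T-ALL and wild type.

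**Figure D4:**
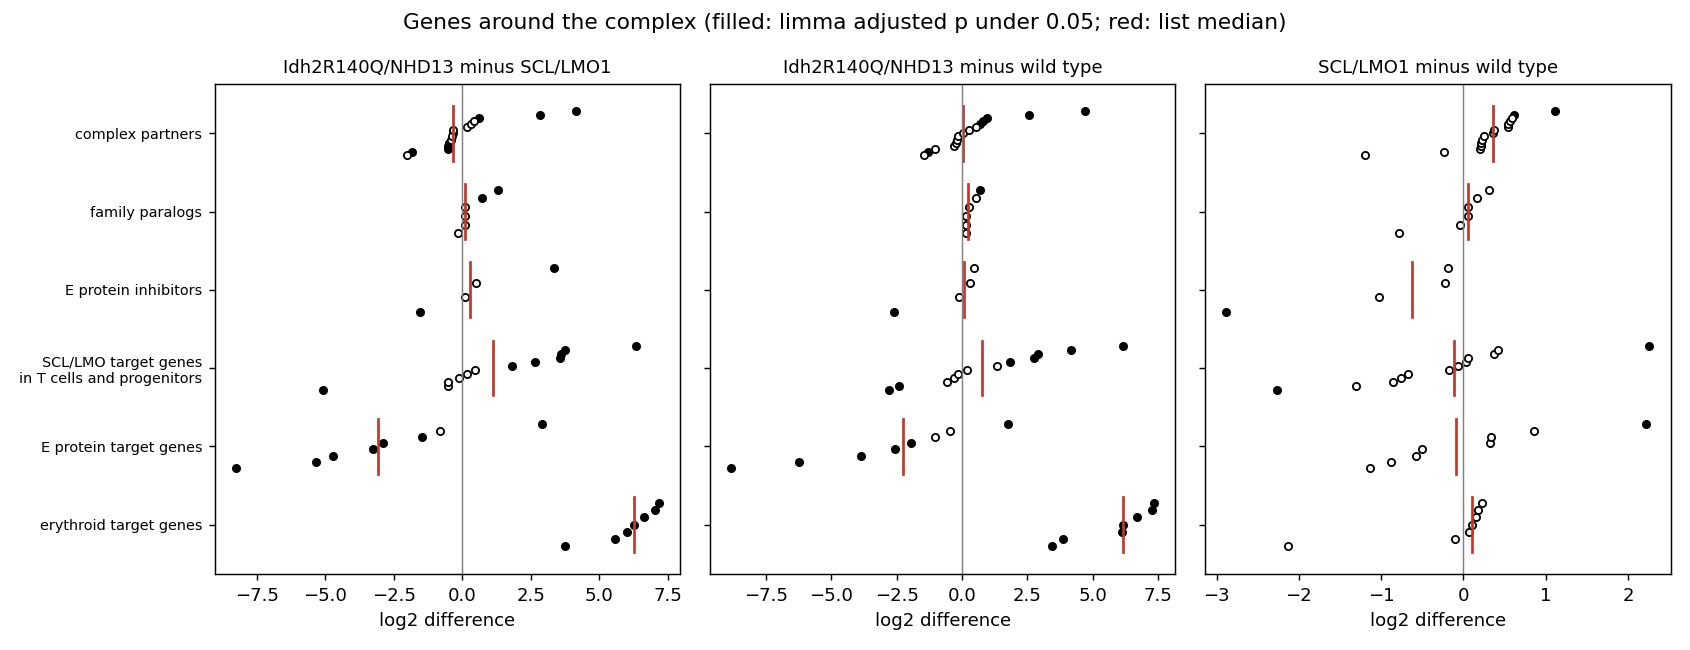
Difference in log2 signal (horizontal axes) of each gene of 6 lists around the complex in the 3 comparisons, filled where limma called it, with the list median in red. The erythroid targets lie to the right and most E protein targets to the left in both comparisons with the spleens, and most points are open between SCL/LMO1 T-ALL and wild type.

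Of 12 genes described as targets of SCL or LMO proteins in T cells and progenitors, 6 were higher and 1 lower in the spleens than in SCL/LMO1 T-ALL (median 1.13). Nfe2, a transcription factor gene of red cell precursors and megakaryocytes, was higher by 6.35 (SE 0.28, limma adjusted p = 9.34e-10), Kit by 3.57 (SE 0.37, limma adjusted p = 5.92e-06) and Hhex by 3.61 (SE 0.46, limma adjusted p = 4.17e-05). Trib2, a pseudokinase gene, went against them at -5.07 (SE 0.41, limma adjusted p = 5.7e-07) and read 12.48 in SCL/LMO1 T-ALL against 10.21 in wild type, where it was higher by 2.26. Against wild type, 5 were higher and 2 lower in the spleens (median 0.77), while 1 was higher and 1 lower in SCL/LMO1 T-ALL (median -0.12), Trib2 and Aldh1a2 (-2.27). Trib2 was not called there without wild-type mouse 627. Of all genes, 23.7% were called between the leukemias, 17.4% between spleens and wild type and 11.6% between SCL/LMO1 T-ALL and wild type.

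Of 8 genes that E proteins activate, 6 were lower and 1 higher in the spleens than in SCL/LMO1 T-ALL (median -3.09). Over all genes 12.0% were called lower and 11.7% higher in this comparison. Rag1 and Rag2, the recombinase genes of maturing lymphocytes, were lower by -8.26 and -5.34 (limma adjusted p = 3.06e-07 and 1.2e-08) and Ptcra, the gene for the pre-T-cell receptor alpha chain, by -4.72 (limma adjusted p = 2.59e-08). Cdkn1a, a cell cycle inhibitor gene, was higher by 2.90 (limma adjusted p = 5.11e-05). The spleens had 5 lower and 1 higher against wild type (median -2.27), where 8.31% of all genes were called lower and 9.08% higher. T-lineage markers moved in the same comparisons, as given above. Among these calls against wild type, Gfi1 (-2.58, limma adjusted p = 0.0408) was lost under 16 of 28 other settings. Cdkn1a (1.75, limma adjusted p = 0.019) was lost under 5, and both were lost without any 1 of the wild-type mice. In SCL/LMO1 T-ALL, 1 of the 8 was called against wild type, where 11.6% of all genes were called, and 4 had an unadjusted p under 0.05. The called gene was Notch1, higher by 2.22 (limma adjusted p = 0.0416), and the list median was -0.09. Whether the transgenes lowered E protein activity in these thymi was not tested. The call of Notch1 was lost under 11 of 28 other settings, among them without wild-type mouse 623 or 627. Rag1, Rag2 and Ptcra differed there by -0.57, -0.88 and 0.86 (limma adjusted p = 0.703, 0.173 and 0.154).

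All 7 erythroid targets of the complex were higher in the spleens than in SCL/LMO1 T-ALL and than in wild type (medians 6.27 and 6.16), and 0 of 7 were called between SCL/LMO1 T-ALL and wild type by limma (1 at an unadjusted p under 0.05, median 0.11). Ahsp, which encodes the alpha globin chaperone, was higher by 7.03 (SE 0.34, limma adjusted p = 2e-09) than in SCL/LMO1 T-ALL. Slc4a1, the anion exchanger gene of red cells, was higher by 7.18 (SE 0.37, limma adjusted p = 3.2e-09). The red cell master regulator gene Klf1 was higher by 6.63 (SE 0.56, limma adjusted p = 8.6e-07). Most of these genes are also among the erythroid markers read beside Tal1, so these counts are not separate evidence from that marker mean. Of all genes, 11.7% were called higher in the spleens than in SCL/LMO1 T-ALL and 9.08% than in wild type. Between SCL/LMO1 T-ALL and wild type 11.6% were called.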

How the data were processed

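The authors deposited 1 log2 signal per probe set and array, and the normalization behind it was not given in the sources used here. RNA was extracted with TRIzol and biotin-labelled, per the labels' protocols. The deposited values were used without further scaling. Another 36 per-array columns matched no sample label and were left out. Of 45101 probe sets, 38089 had 1 gene symbol (updated through Entrez identifiers for 1813), 6948 had none and 64 were controls. The 3 groups were fitted with limma 3.58.1 in R 4.3.3 over all 20672 genes, and again over all probe sets, with empirical Bayes moderation and Benjamini-Hochberg adjustment, and calls were made at an adjusted p under 0.05. The script was tested on simulated data. No gene was left out as dim. Precision is limited by the number of arrays, and p-values rest on the spread between mice.

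Mice 546 and 550 were averaged because their array pair differed by 0.21 log2 units, against 0.445 or more in the other 152 pairs, and probe sets of a gene correlated with r = 0.21 in their differences across genes, against 0.70 to 0.90. These correlations are across genes, which are not independent. Mice 7114/1 and 7114/3 were kept apart.

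Relations to marker means used exact permutation of pairings, two-sided, with scipy 1.17.1. The members, 6 gene lists and 9 marker lists were chosen with earlier results of these data known. Named genes were the 8 members, from each list up to 4 with the smallest adjusted p between the leukemias among those called and any called against the list's majority, and the 5 nearest profiles of members with an SD above 1. Gata3, and the genes said to be named after their values were seen, fall outside this rule, as do Notch1, Aldh1a2, and the paralogs and recombinase genes given without a call. Other settings were quantile normalization, centred array medians, dim genes left out, averaged probe sets, a robust variance trend, array weights, only the 2 groups, mice 7114/1 and 7114/3 blocked or averaged, all 18 arrays separately, a threshold of 0.01 and leaving out each sample.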

Additional observations from a re-analysis of the deposited data

How the results depend on the processing

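No paired analysis was possible because the labels number mice, and no number is shared between groups. Between the leukemias the same 6 members were called under every setting run except an adjusted p under 0.01, where Ldb1 was lost. Over all genes, an adjusted p under 0.01 gave 2780 calls between the leukemias, 1401 between spleens and wild type and 889 between SCL/LMO1 T-ALL and wild type. Array weights gave 6902 and 4827 in the last 2 comparisons, and only the 2 groups gave 1989 between spleens and wild type. Leaving out 1 sample gave 4064 to 5357, 1382 to 5288 and 765 to 2989 calls. Members called between spleens and wild type were 5 with array weights, which added Tcf3 and Tcf12, and 3 to 4 with a sample left out. Between SCL/LMO1 T-ALL and wild type they were 2 with array weights, which added Tcf3, and 3 with only the 2 groups, which added Tcf3 and Tcf12. The signs that turned belonged to differences that were not called. Lmo4 in SCL/LMO1 T-ALL against wild type was 0.0638 with centred medians, 0.0269 with array weights and -0.31 to 0.19 with a sample left out. With a sample left out, Lyl1 and Ldb1 there ran from -0.34 to 0.58 and from -0.0031 to 0.69, and Lmo1 between spleens and wild type from -0.14 to 0.60. Without the 2 farthest spleens, r with the erythroid mean was -0.792 for Lyl1, -0.105 for Ldb1 and -0.122 for Tcf3, and with a marker mean that lacks Car2, Tfrc and Epor it was -0.054 for Lmo2 in SCL/LMO1 T-ALL. The causes were not tested. The correlation of the 7114 pair (0.32) was estimated from moments, since a single pair gave no value in limma, and 14651 genes remained where dim genes were left out. Of 1008 values of list counts under other settings, 60 moved, and of 1876 values of called list genes 107 were no longer called and none turned in sign.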
